A study of Mus musculus with 8 samples.

Results

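The liver shuts off its own bile acid synthesis through a short chain of genes, and 8 of them were examined here in liver RNA from mice fed a Control or a Low AA (amino acid) diet. The 8 genes were picked by symbol as receptors and relay proteins of this feedback: Nr1h4, Nr0b2, Nr5a2, Fgfr4, Klb, Map2k1, Ppp2cb and Zfp36l1. All 8 were among the 11784 genes listed in the deposited table, and all 8 passed the filter on low values. Livers came from 8 male C57BL/6J mice, 4 on the Control diet (TD.140711) and 4 on the Low AA diet (TD.140712). Mice started the diets at 9 weeks of age, ate them for 4 months and were killed after an overnight fast of about 16 hours. On Low AA, fewer of the calories came from amino acids and more from carbohydrate, so a lower amino acid and a higher carbohydrate intake cannot be told apart. The mice were not genetically modified, and each library was made from the liver of 1 mouse. They are named below by the codes in the sample titles: F129, F2212, F7111 and F2110 on Control, and H1126, H828, H817 and H1315 on Low AA.

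Bile acids returning to the hepatocyte bind FXR, the nuclear receptor encoded by Nr1h4, which raises transcription of Nr0b2. Nr0b2 encodes SHP, a nuclear receptor without a DNA-binding domain that represses transcription by docking onto other receptors, among them LRH-1 (Nr5a2). A further signal comes from the ileum, where bile acids induce the hormone FGF15. FGF15 reaches the liver through the blood and binds FGFR4, a receptor tyrosine kinase, together with its co-receptor beta-Klotho (Klb). FGFR4 then signals through the RAS, RAF, MEK and ERK relay, in which Map2k1 encodes MEK1. Ppp2cb encodes a catalytic subunit of the phosphatase PP2A, which removes phosphates from several proteins of such relays. Zfp36l1 encodes an RNA-binding protein that binds AU-rich elements and marks messenger RNAs, Cyp7a1 among them, for decay. The routes end on Cyp7a1, the rate-limiting enzyme of the classic bile acid synthesis pathway, and Cyp8b1, the sterol 12-alpha-hydroxylase needed for cholic acid.

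LRH-1 binds DNA as a monomer at sites of the type CAAGGNCA, so the stretch before each gene's start was read for these letters on both strands. RefSeq promoter windows on GRCm38.p6, cut to the 250 bases before the start, were available here for 7 of the 8 genes, in 8 windows because Nr5a2 had 2 starts. No window was available here for Ppp2cb or for Cyp7a1, so neither was read for any site. CAAGGNCA was in the Nr0b2 window and in that of Cyp8b1, and it was in 5.53% of all 32851 windows. These 2 windows are shown because SHP and CYP8B1 stand at the repressing and the repressed end of the chain. The capitals mark the CAAGGNCA match, CAAGGCCA from -201 to -194 in Nr0b2 and CAAGGGCA from -60 to -53 in Cyp8b1, where -1 is the last base before the start.
Nr0b2, chr4:133553126-133553375, plus strand: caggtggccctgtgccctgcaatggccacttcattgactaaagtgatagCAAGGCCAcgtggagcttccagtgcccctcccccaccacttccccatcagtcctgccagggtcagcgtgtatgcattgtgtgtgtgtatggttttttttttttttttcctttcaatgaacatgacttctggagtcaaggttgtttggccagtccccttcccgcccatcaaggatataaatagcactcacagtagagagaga
Cyp8b1, chr9:121916306-121916555, minus strand: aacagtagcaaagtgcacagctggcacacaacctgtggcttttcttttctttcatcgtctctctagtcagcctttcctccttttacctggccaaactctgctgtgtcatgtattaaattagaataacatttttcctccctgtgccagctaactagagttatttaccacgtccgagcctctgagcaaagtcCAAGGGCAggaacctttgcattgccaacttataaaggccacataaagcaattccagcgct
The single receptor half-site AGGTCA, which also lies within CAAGGNCA where N is T, was in 14.0% of all windows. Among the members it stood from -64 to -59 before 1 start of Nr5a2. On the opposite strand, as TGACCT, it stood from -214 to -209 before the RefSeq start of Nr1h4. That Nr1h4 window, chr10:89506659-89506908, lies inside the gene as placed by GENCODE, so this start is an internal one. The inverted repeat IR-1, in which AGGTCA, any base and the reverse complement TGACCT follow each other and which FXR is known to bind, was in 2 of the 32851 windows and in none of the 8 member windows. An exact IR-1 was too rare for its absence from 8 windows to tell anything, and bases farther from the start were not read. Whether a member has an FXR site is therefore not decided here. A match is a stretch of letters and not a measured binding site.

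The values were read counts scaled between libraries and rounded, called scaled read counts here. They summed to 27876664 to 30799385 per mouse, and totals of scaled values are not sequencing depth, which is unknown. All 5 hepatocyte markers were listed, and Alb, the plasma protein albumin, ran from 1321262 to 1789498 scaled read counts. The Control mouse F2212 stood apart from the rest. Its Cela1, a pancreatic elastase, was at 36587 scaled read counts, where F129, F7111 and F2110 had 130 to 178 and the Low AA mice 190 to 288. Its 18 acute-phase genes summed to 877545, against 511933 to 654816 in the other 7 mice. Fold changes of members and named genes and medians of gene lists are therefore also given without F2212 where that turned their sign or moved them by over 1.5 times.

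None of the 8 genes differed between the diets at an adjusted p under 0.05 in limma fitted to all 11784 genes, where 0.399% of genes, 47 in all, passed. At an unadjusted p under 0.05, 3 of the 8 members passed, Nr0b2 higher and Fgfr4 and Map2k1 lower on Low AA, against 11.8% of all genes, 5.13% higher and 6.7% lower. For 2 of the 8, Fgfr4 and Map2k1, no Low AA mouse reached the lowest Control mouse, and 6.81% of all genes had groups that did not overlap in either direction. The log2 fold change was above 0 for 6 of the 8 members with a median of 0.07, while the median over all genes was 0.00 and 50.5% of them were above 0.

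**Figure D1:**
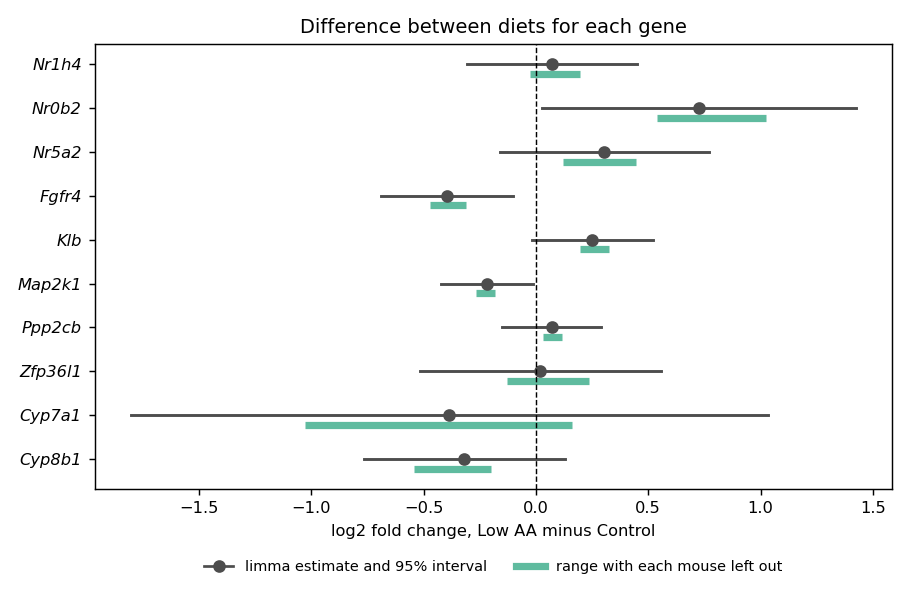
Difference between the diets for the 8 genes and for Cyp7a1 and Cyp8b1, as the log2 fold change of Low AA minus Control (horizontal axis). Points and thin lines are the limma estimate with its 95% interval, and thick lines the range with each mouse left out. The intervals of Nr0b2, Fgfr4 and Map2k1 lie to 1 side of 0, and the widest is that of Cyp7a1, from -1.80 to 1.03.

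Nr1h4, which encodes the bile acid sensor FXR (10:89454234-89533585, minus strand), was at 4449, 3786, 2797 and 2920 scaled read counts in the Control mice F129, F2212, F7111 and F2110. In the Low AA mice H1126, H828, H817 and H1315 it was at 4314, 2867, 3652 and 3700. The diets overlapped almost completely, with high and low livers on each. The means were 3488 ± 777 on Control and 3633 ± 593 on Low AA (SD, n = 4 each), so that log2 values differed by 0.07 with an SE of 0.17 (limma adjusted p = 0.920). It was 0.12 without F2212. The 95% interval of that difference with all mice, -0.31 to 0.45, leaves room for a change of either sign.

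Nr0b2, which encodes SHP (4:133553376-133556536, plus strand), had the highest log2 fold change of the members. Its scaled read counts were 1022, 429, 560 and 370 in F129, F2212, F7111 and F2110, and 1247, 1143, 641 and 750 in H1126, H828, H817 and H1315. The Low AA mice were above 3 of the 4 Control mice, and the Control mouse F129 was above 2 of the 4 Low AA mice. The mean was 595 ± 295 on Control and 945 ± 295 on Low AA (SD, n = 4 each). The log2 fold change was 0.73 with an SE of 0.31 and a 95% interval of 0.03 to 1.43, and it did not pass the test (limma adjusted p = 0.405; exact permutation p = 0.114). Leaving out F129 gave 1.03 (limma adjusted p = 0.170), and leaving out F2212 gave 0.61 (limma adjusted p = 0.506).

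Nr5a2, which encodes LRH-1 (1:136842571-136960448, minus strand), a nuclear receptor that drives transcription of bile acid synthesis genes and of Nr0b2, was at 971, 730, 1448 and 1308 scaled read counts on Control in the order F129, F2212, F7111 and F2110. On Low AA it was at 1296, 1687, 1254 and 1142 in H1126, H828, H817 and H1315. The lowest value was that of F2212, and F7111 and F2110 lay within the Low AA range. The means were 1114 ± 325 and 1345 ± 237 (SD, n = 4 each), with a log2 fold change of 0.31 and an SE of 0.21 (limma adjusted p = 0.641). Without F2212 it was 0.12, and without H828 it was 0.19. The part of what set F2212 apart in this difference was not tested.

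**Figure D2:**
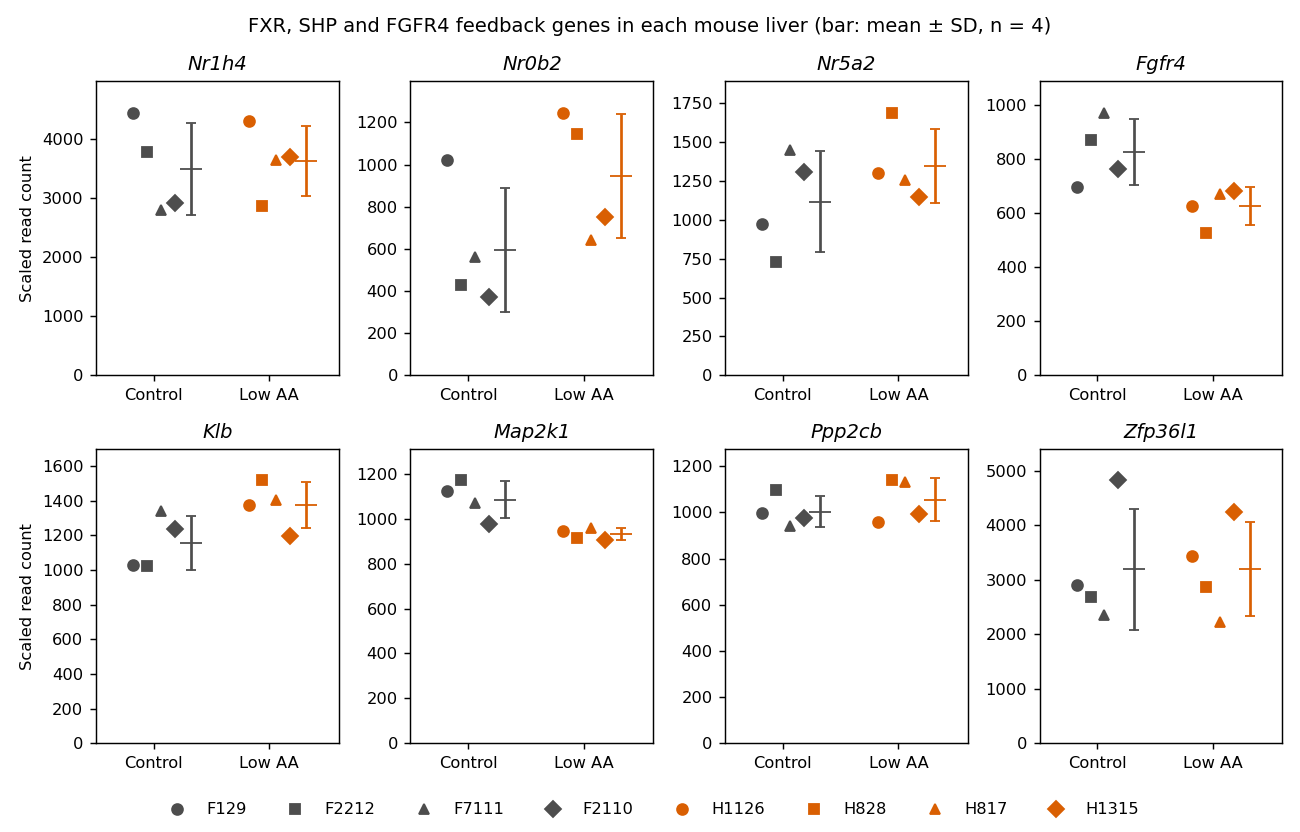
Scaled read counts of the 8 genes in each mouse liver (vertical axes from 0, a panel per gene), with a symbol for each mouse and bars for the mean ± SD of 4 mice. Fgfr4 and Map2k1 are lower in every Low AA mouse than in any Control mouse, Nr0b2 is high in F129 on Control, and Nr1h4 and Zfp36l1 overlap throughout.

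FGFR4 and beta-Klotho act as a pair, and their transcripts had mean differences of opposite sign between the diets. Fgfr4 (13:55152640-55168759, plus strand) was at 696, 871, 971 and 761 scaled read counts in F129, F2212, F7111 and F2110. On Low AA it was at 627, 525, 669 and 681 in H1126, H828, H817 and H1315, and each of these was below the lowest Control value. The mean was 825 ± 121 on Control and 626 ± 70.9 on Low AA (SD, n = 4 each). The log2 fold change was -0.39 with an SE of 0.13. In limma it did not pass over all genes (adjusted p = 0.261), and the exact permutation test of this gene alone gave p = 0.0286, the smallest value that 4 against 4 mice allow. Groups without overlap and lower on Low AA were found for 3.55% of all genes. In whole liver, fewer cells that express a gene and less RNA of it per cell cannot be told apart.

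Cholangiocyte markers had the same sign as Fgfr4. Of the 5, 4 were listed and all 4 had log2 fold changes below 0, while Krt7 was not in the table used here. Their summed level was 1124 to 2265 scaled read counts on Control and 826 to 1316 on Low AA. Spp1 weighed most in that sum, and the 2265 was that of F129, where Spp1 was at 2075. The other Control mice, at 1124 to 1270, lay within the Low AA range. Blood markers were below 0 for 3 of 3, summing to 6414 to 22257 on Control and 7713 to 12216 on Low AA, and stellate markers for 4 of 5, summing to 7120 to 9174 and 7440 to 9322. Of the stellate markers, Col1a1, a collagen chain, had groups that did not overlap (log2 fold change -1.07, limma adjusted p = 0.148). Hepatocyte markers were below 0 for 4 of 5, with a median of -0.09, or -0.05 without F2212. Their sum, in which Alb weighs most, was nevertheless 2050282 to 2427500 on Control and 2228178 to 2446308 on Low AA. Kupffer cell markers were above 0 for 5 of 5, summing to 3653 to 5730 on Control and 4167 to 5736 on Low AA, and endothelial markers for 3 of 5. The part of any of these in the Fgfr4 difference was not tested.

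Klb (5:65348314-65384007, plus strand) was at 1030, 1025, 1338 and 1239 scaled read counts on Control, again in the order F129, F2212, F7111 and F2110. It was at 1377, 1517, 1406 and 1199 in H1126, H828, H817 and H1315. Of the Low AA mice 3 lay above all Control mice and H1315 lay within them. The mean was 1158 ± 156 on Control and 1375 ± 132 on Low AA (SD, n = 4 each). On the log2 scale they differed by 0.25 with an SE of 0.12 and a 95% interval of -0.02 to 0.52 (limma adjusted p = 0.458).

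Within each mouse, the ratio of Klb to Fgfr4 does not depend on how its library was scaled. The log2 ratio was 0.565, 0.235, 0.462 and 0.702 in F129, F2212, F7111 and F2110, and 1.134, 1.529, 1.070 and 0.815 in H1126, H828, H817 and H1315. Every Low AA mouse had more co-receptor transcript per receptor transcript than any Control mouse. Fgfr4 by itself had groups without overlap, so the separated ratio is no result apart from that of Fgfr4. The share of gene pairs whose ratios separate the diets was not counted. The mean was 0.49 ± 0.20 on Control and 1.14 ± 0.30 on Low AA (SD, n = 4 each), a difference of 0.65 (exact permutation p = 0.0286). Of 4 ratios examined it was the only one to reach an unadjusted p under 0.05. Adjusted over the 4 by Benjamini-Hochberg, its exact p was 0.114. With a Low AA mouse left out the difference was 0.52 to 0.75, with an exact permutation p of 0.0286. Leaving out a Control mouse gave 0.67 without F129, 0.56 without F2212, 0.64 without F7111 and 0.72 without F2110, each time with an exact permutation p of 0.0571. Groups without overlap cannot come to overlap when a mouse is left out, so these p-values are no check of the separation. The ratio of Nr0b2 to Nr1h4, SHP per FXR transcript, had a log2 mean of -2.64 ± 0.50 on Control and -1.98 ± 0.53 on Low AA (SD, n = 4 each; exact permutation p = 0.143). Ratios were not corrected for transcript length, so only their differences between mice are read.

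**Figure D3:**
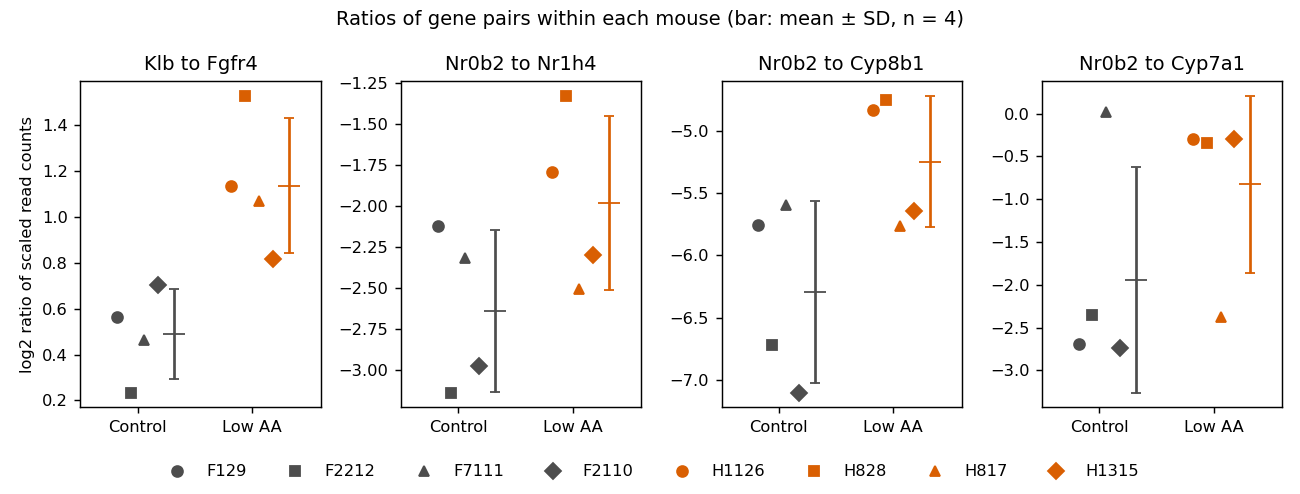
Log2 ratio of the scaled read counts of 4 gene pairs within each mouse (vertical axes, a panel per pair), with a symbol per mouse and bars for the mean ± SD of 4 mice. Klb to Fgfr4 is higher in every Low AA mouse than in any Control mouse, and the other 3 pairs overlap between the diets.

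Of the relay genes, Map2k1 (9:64185770-64253631, minus strand), the MEK1 kinase that phosphorylates ERK, was at 1124, 1170, 1070 and 975 scaled read counts in F129, F2212, F7111 and F2110, and at 945, 916, 959 and 903 in H1126, H828, H817 and H1315. All Low AA mice were below all Control mice, although H817 and the Control mouse F2110 were close. The means were 1085 ± 83.8 and 931 ± 25.7 (SD, n = 4 each), and the log2 fold change was -0.22 with an SE of 0.09. The limma adjusted p was 0.388 and the exact permutation p 0.0286.

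Ppp2cb (8:33599625-33619441, plus strand), a PP2A catalytic subunit, was at 999, 1096, 943 and 975 scaled read counts on Control and at 957, 1138, 1132 and 991 on Low AA, in the same order of mice as above. The ranges overlapped, with means of 1003 ± 66.0 and 1055 ± 94.0 (SD, n = 4 each), and the log2 fold change of 0.07 with an SE of 0.10 had a 95% interval of -0.15 to 0.29 (limma adjusted p = 0.846) and was 0.11 without F2212.

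Zfp36l1 (12:80107754-80113013, minus strand), the messenger RNA decay factor, was at 2907, 2685, 2349 and 4818 scaled read counts in F129, F2212, F7111 and F2110. It was at 3441, 2863, 2231 and 4246 in H1126, H828, H817 and H1315. F2110 and H1315 were high and F7111 and H817 low, 1 mouse of each kind on each diet, and the means of 3190 ± 1109 and 3195 ± 857 (SD, n = 4 each) were close. The log2 fold change was 0.02 with an SE of 0.24 and a 95% interval of -0.52 to 0.56 (limma adjusted p = 0.987), and it was -0.04 without F2212.

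The enzymes at the end of the chain varied widely between mice on Control. Cyp7a1 (4:6265612-6275633, minus strand) was at 6601, 2195, 553 and 2480 scaled read counts in F129, F2212, F7111 and F2110 and at 1531, 1449, 3343 and 921 in H1126, H828, H817 and H1315. Both the highest and the lowest liver were on Control, and they differed 11.9-fold. The means were 2957 ± 2573 on Control and 1811 ± 1056 on Low AA (SD, n = 4 each). The log2 fold change was -0.39 with an SE of 0.64 (limma adjusted p = 0.873), and it was 0.16 without F129 and -1.03 without F7111. Leaving out H817 gave -0.73 and leaving out H1315 gave -0.11. Cyp8b1 (9:121914356-121916305, minus strand) was at 55457, 45329, 27210 and 50919 on Control and at 35637, 30848, 34826 and 37522 on Low AA. The Low AA mice were close together and lay inside the Control range, between F7111 and the other 3 Control mice. The means were 44729 ± 12392 and 34708 ± 2810 (SD, n = 4 each). On the log2 scale the diets differed by -0.32 with an SE of 0.20 (limma adjusted p = 0.603). Without F7111 the difference was -0.54 (limma adjusted p = 0.118) and without F129 it was -0.20.

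The spread between mice of 1 diet also differed from gene to gene. On Control the coefficient of variation was 87.0% for Cyp7a1, 49.6% for Nr0b2 and 34.8% for Zfp36l1, but 6.57% for Ppp2cb and 7.73% for Map2k1. It was lower on Low AA than on Control for 7 of the 8 members, the exception being Ppp2cb at 8.92%. Cyp8b1, which is not a member, was also lower on Low AA, at 8.10% against 27.7% on Control. The share over all genes was not counted, so this is not read as a trait of the members. With 4 mice each, these are descriptions and were not tested.

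Whether the feedback genes followed the enzymes from mouse to mouse was asked over all 8 mice. Among the 8 members, Cyp7a1 and Cyp8b1 there are 45 pairs, of which 6 had an exact unadjusted p under 0.05 by Pearson's r and 0 after Benjamini-Hochberg adjustment over the 45. After each gene was centred on its diet means, 1 pair had an exact unadjusted p under 0.05 and 0 an adjusted one. Cyp7a1 and Cyp8b1 were related to each other with r = 0.77 (exact permutation p = 0.024, adjusted 0.344) and rho = 0.67 (exact p = 0.083, adjusted 0.415). Without F129 and F7111, the mice farthest from the median of Cyp7a1, r was 0.33. Leaving out the extremes of a gene narrows its range, which can lower r by itself. With each mouse left out r ran from 0.63 to 0.88, and centred on the diet means it was 0.79 (exact permutation p = 0.097).

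SHP represses both enzymes in textbook accounts, and the relation of Nr0b2 to either did not pass the test in these livers. With Cyp7a1 its r was 0.06 (exact permutation p = 0.881, adjusted 0.953) and rho -0.10 (exact p = 0.840, adjusted 0.968). Without F129 and F7111 r was -0.53. The Control mouse F129 had the highest Cyp7a1 and also the highest Nr0b2 of its diet, while F7111 had the lowest Cyp7a1 and an intermediate Nr0b2. With Cyp8b1, r of Nr0b2 was -0.24 (exact permutation p = 0.548, adjusted 0.848), rho was -0.21 (exact p = 0.619, adjusted 0.899) and r was -0.32 without F129 and F2110. Nr1h4 had r = 0.54 with Cyp7a1 (exact permutation p = 0.170, adjusted 0.645) and rho = 0.55 (exact p = 0.171, adjusted 0.632), and r was -0.12 without F129 and F7111. None of these 3 relations passed its test, and each turned sign with 1 or 2 mice left out.

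The co-receptor Klb was the 1 member with an unadjusted p under 0.05 in the 16 pairs of a member with an enzyme. It was low where Cyp8b1 was high, with r = -0.77 (exact permutation p = 0.029, adjusted 0.344) and rho = -0.74 (exact p = 0.046, adjusted 0.412). Without F129 and F2110 r was -0.77 and centred on the diet means it was -0.69. With the libraries rescaled to equal totals r was -0.62 (exact permutation p = 0.099). Of all genes, 11.2% had an r with Cyp8b1 of 0.7 or more in size, and 4.46% with Cyp7a1, so relations of that strength to Cyp8b1 were common in this table.

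Among the members themselves, 4 of 28 pairs had an unadjusted p under 0.05. Klb and Nr5a2 were the most alike, with r = 0.90 (exact permutation p = 0.001, adjusted 0.062) and rho = 0.79 (exact p = 0.028, adjusted 0.412). Both were low in F129 and F2212 and highest in H828. Without F2212 and F129 r was 0.76, centred on the diet means it was 0.90, and with each mouse left out it ran from 0.86 to 0.93. An r of that size was shown by 1.58% of all genes with Klb and by 3.29% with Nr5a2. Many genes followed this pattern, since 19.8% of all genes had an r of 0.7 or more in size with Klb and 22.3% with Nr5a2. The share was 9.59% with Map2k1, 9.3% with Fgfr4, 7.92% with Nr1h4, 5.32% with Ppp2cb, 4.75% with Nr0b2 and 4.09% with Zfp36l1.

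Nr0b2 and Fgfr4 ran in opposite directions, with r = -0.73 (exact permutation p = 0.039, adjusted 0.344) and rho = -0.79 (exact p = 0.028, adjusted 0.412). Without F2110 and H1126 r was -0.81. Centred on the diet means it was -0.52 (exact permutation p = 0.260). The other 2 pairs were Map2k1 with Klb, at r = -0.74 (exact permutation p = 0.043, adjusted 0.344) and rho = -0.60 (exact p = 0.132, adjusted 0.595), and Map2k1 with Nr5a2, at r = -0.70 (exact permutation p = 0.046, adjusted 0.344) and rho = -0.43 (exact p = 0.299, adjusted 0.709). Without F2212 and F129, the mice farthest from the median of Klb, r of the first was -0.03. With each mouse left out it ran from -0.89 to -0.59. Without F2212 and H828, the mice farthest from the median of Nr5a2, r of the latter was -0.25. With each mouse left out it ran from -0.85 to -0.43. Fgfr4 and Map2k1 do not overlap between the diets, so their pooled r also carries the diet difference. Centred on the diet means, r of Map2k1 was -0.47 with Klb (exact permutation p = 0.385) and -0.67 with Nr5a2 (exact permutation p = 0.182).

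**Figure D4:**
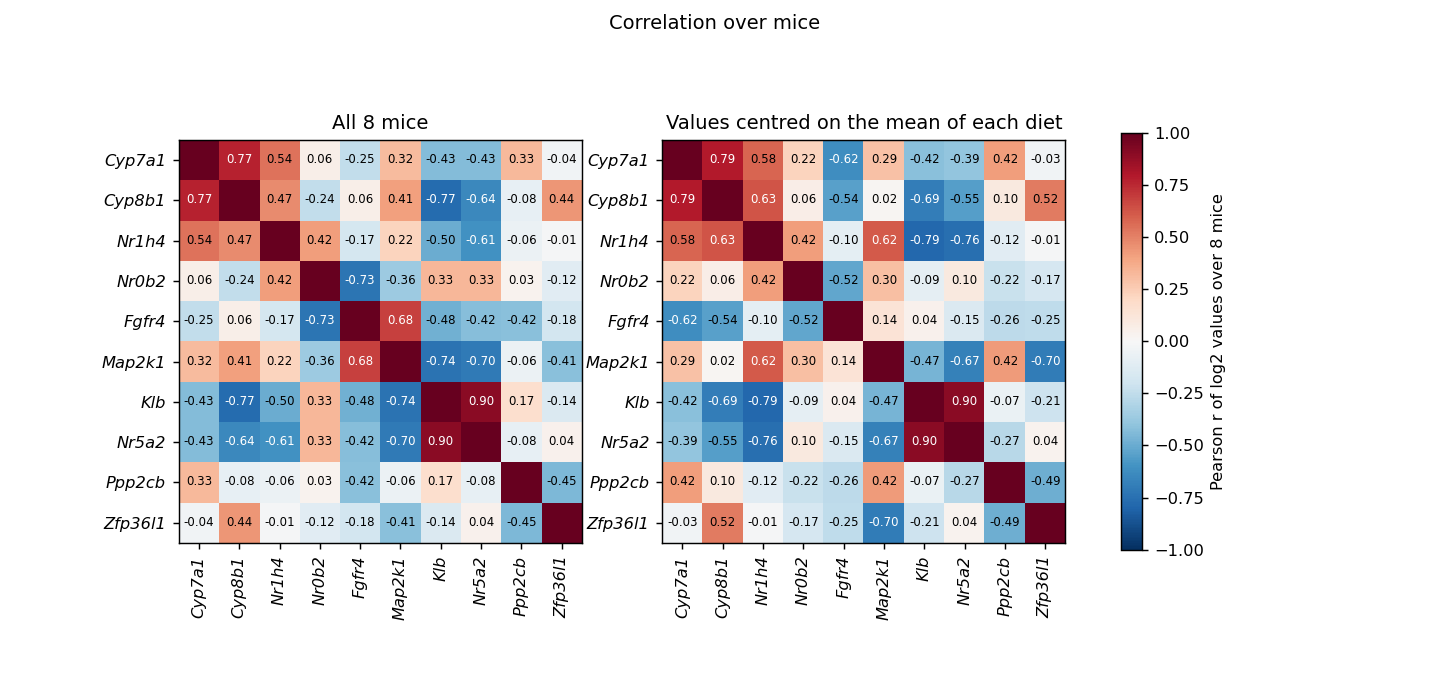
Pearson's r of log2 values over 8 mice for each pair of the 8 members, Cyp7a1 and Cyp8b1, from all mice (left) and after centring each gene on its diet means (right), with red above 0 and blue below 0. Klb with Nr5a2 is at 0.90 in both panels, and Nr0b2 with Cyp7a1 is at 0.06 and 0.22.

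**Figure D5:**
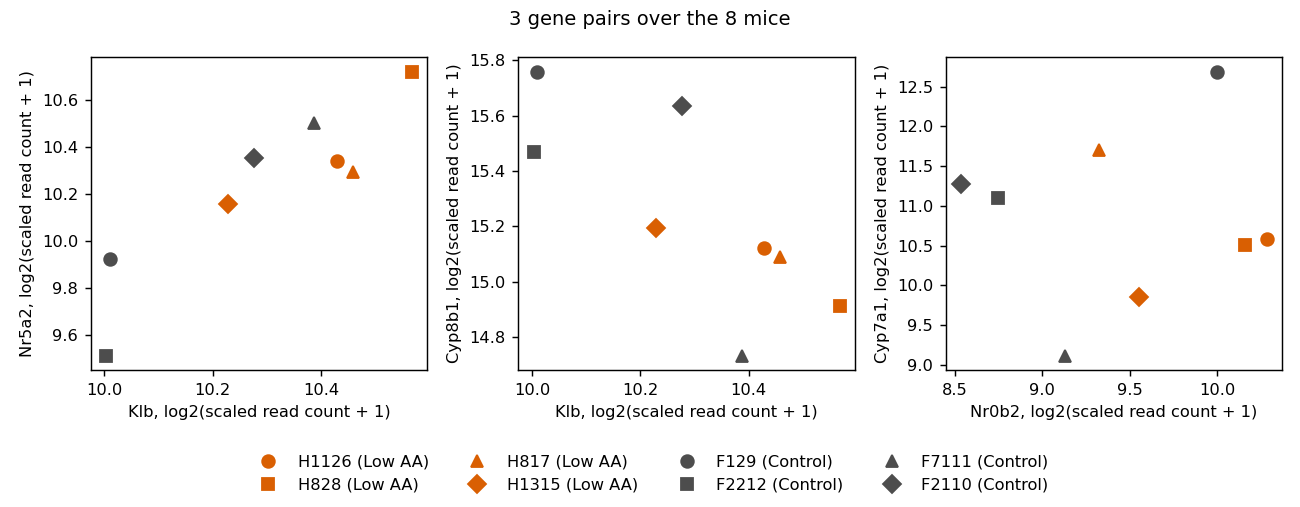
Values of 3 gene pairs in the 8 mice, on the scale of log2 of the scaled read count plus 1 on both axes, with a symbol per mouse. Nr5a2 is high where Klb is high (r = 0.90), Cyp8b1 is low where Klb is high (r = -0.77), and Cyp7a1 follows no line with Nr0b2 (r = 0.06).

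Levels of different genes were ranked only per kilobase of the longest annotated coding transcript. By that scale Nr1h4 was the most abundant member on both diets, at a mean of 1733 scaled read counts per kilobase on Control and 1805 on Low AA. Zfp36l1 came next at 1067 and 1069. On Control their ranges over mice overlapped, and on Low AA they did not. Nr5a2 was the least abundant on Control at 235, overlapping Fgfr4 at 248, which overlapped Klb at 327. On Low AA Fgfr4 was the least abundant at 188, with no overlap with its neighbour Nr5a2 at 284, and Nr5a2 had none with Map2k1 at 382. Nr5a2 has 5 annotated coding transcripts of 679 to 4733 bases, and Zfp36l1 has 4 of 292 to 2990 bases. The places and overlaps of these genes therefore hold only for the longest transcript. Nr0b2 took the fourth place on Control at 526 and the third on Low AA at 835, each time with a range that overlapped that of Ppp2cb, at 683 and 718.

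Genes whose log2 values followed each member most closely were picked as the 3 highest and the 1 lowest r of 11783 other genes, which makes their r high by choice. Nr1h4 was closest to Tcta (r = 0.97), Gmpr and Brd9 and most opposed to 1810013L24Rik. Nr0b2 was closest to Ss18 (r = 0.95), Rbm28 and BC057079 and most opposed to Nab2 (r = -0.96), a corepressor of EGR transcription factors. Nr5a2 was closest to Slc35a3 (r = 0.99), a UDP-GlcNAc transporter of the Golgi, then Btbd7 and Nek7, and most opposed to Sap30l. Fgfr4 was closest to Pkdcc (r = 0.98), Plekhm1 and Gba2 and most opposed to Cd9 (r = -0.97), a tetraspanin. Klb was closest to Lrp6 (r = 0.98), a Wnt co-receptor, then Ubxn2a and Dhx15, and most opposed to Nudt2. Among the genes closest to Map2k1 were Hrsp12 (r = 0.96) and Klhdc8b, and it was most opposed to Chd1l. Ppp2cb was closest to Rpl30 (r = 0.98), Keap1 and Pex13 and most opposed to Zfp862. Zfp36l1 was closest to Ppp1r15a (r = 0.98), a stress-induced regulator of protein phosphatase 1, then Cenpj and the clock repressor Nr1d1, and most opposed to Ccdc84. None of the 24 closest genes was itself a member.

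Other genes of the pathway were taken from 9 lists. In limma 0 genes in any of them passed at an adjusted p under 0.05, and the 2 genes of each list with the smallest unadjusted p are named. Counts at an unadjusted p under 0.05 stand beside 5.13% of all genes higher and 6.7% lower on Low AA. Of 20 nuclear receptors and partners, 13 had log2 fold changes above 0 with a median of 0.06, and 1 had an unadjusted p under 0.05, which was Nr0b2. The next was Prmt1, an arginine methyltransferase, at 0.20 (limma adjusted p = 0.574). Of 13 liver genes induced by FXR, 11 were listed, with a median of 0.13 that became -0.02 without F2212. Of these 11, 2 had an unadjusted p under 0.05 in the higher direction, Insig2 and again the member Nr0b2. In the lower direction there was 1, Pltp. Pltp, the phospholipid transfer protein, was at 1172, 1528, 1051 and 1099 on Control and 803, 755, 929 and 892 on Low AA. Its groups did not overlap and differed by -0.51 on the log2 scale (limma adjusted p = 0.146). Insig2, which holds back SREBP processing, differed by 0.53 on the log2 scale (limma adjusted p = 0.389), and by 0.31 without F2212.

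All 16 bile acid synthesis genes were listed, with a median of -0.14, or -0.05 without F2212, and 1 in each direction had an unadjusted p under 0.05. Cyp27a1, the enzyme that opens the alternative pathway, was at 9431, 10532, 10443 and 8404 in F129, F2212, F7111 and F2110 and at 6232, 5983, 6926 and 7618 in H1126, H828, H817 and H1315. Cyp39a1, an oxysterol 7-alpha-hydroxylase, was at 1194, 660, 1339 and 1325 on Control and at 1730, 2903, 2608 and 2174 on Low AA. Neither gene's groups overlapped, Cyp27a1 being lower (log2 fold change -0.54, limma adjusted p = 0.0847) and Cyp39a1 higher (1.09, limma adjusted p = 0.0897) on Low AA. Of 15 bile acid and biliary lipid transport genes, 13 were listed with a median of 0.08 that became -0.02 without F2212, and 1 had an unadjusted p under 0.05. That was Abcc3, a basolateral exporter of bile acid conjugates, at -0.70 on the log2 scale with groups that did not overlap (limma adjusted p = 0.147). Slco1a4, an uptake transporter, was at 0.70 (limma adjusted p = 0.537).

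Of 13 FGF receptors, co-receptors and ligands, 11 were listed with a median of 0.05, or -0.03 without F2212, and Fgf15 and Kl were not in the table used here. Besides Fgfr4, Fgfr1 was lower in every Low AA mouse, at 105 to 132 scaled read counts against 145 to 258 on Control. Its log2 fold change was -0.71 (limma adjusted p = 0.135), and these 2 receptors were the list's only genes with an unadjusted p under 0.05. The 23 genes that relay from FGFR to ERK had a median of -0.03, or -0.06 without F2212, and Map2k1 was the 1 with an unadjusted p under 0.05. The next was Araf, a RAF kinase, at -0.14 (limma adjusted p = 0.603). Of 14 feedback genes that ERK induces, 12 were listed, with a median of 0.05, or -0.08 without F2212, and 0 at an unadjusted p under 0.05. Spred1, an inhibitor of RAS activation, was at 0.60 (limma adjusted p = 0.585), or 0.26 without F2212, and Ier3, an immediate early gene, at 0.37 (limma adjusted p = 0.718).

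Of 14 PP2A subunits and regulators, 13 were listed, and 12 of the 13 had log2 fold changes above 0, with a median of 0.15 against 0.00 for all genes and 0.17 without F2212. At an unadjusted p under 0.05, 3 were higher, against 5.13% of all genes, and 3 had Low AA values all above Control, against 3.26%. These were not all the same genes, and Ppp2r2d and Ppp2r4 had groups that overlapped. Ppp2r2d, a regulatory B subunit, was at 1341, 2041, 1415 and 1432 on Control and 1883, 2443, 2532 and 2096 on Low AA, 0.53 higher on the log2 scale (limma adjusted p = 0.179). Ppp2r4, an activator of PP2A, was at 0.35 (limma adjusted p = 0.339). Summed over the 13 genes, the level was 20547 to 22854 scaled read counts on Control and 23390 to 24329 on Low AA. The member Ppp2cb, at 0.07, lay below the median of the list.

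All 16 genes of the ZFP36 family and its messenger RNA decay partners were listed, and 14 had log2 fold changes above 0 with a median of 0.09. That median became -0.04 without F2212, and 0 of the 16 had an unadjusted p under 0.05. Pan3, a deadenylase subunit, was at 0.20 (limma adjusted p = 0.631) and Zfp36, the founding member that encodes tristetraprolin, at 0.36 (limma adjusted p = 0.655), or 0.23 without F2212.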

How the data were processed

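Polyadenylated liver RNA from 8 mice was made into stranded libraries. The authors deposited 1 table with a scaled read count per gene and mouse (a signal with no further unit), the values being whole numbers whose pattern of gaps and repeats among low values in 6 of the 8 libraries shows that read counts were multiplied by a factor and rounded. Neither the factors nor the annotation is given in the sources used here. Of tools, the submitters' processing notes name, with no role, bcl2fastq 1.8.2, STAR 2.5.0a, RSEM 1.2.6, edgeR 3.10.5, R 3.2.1 and the build mm10. Listed genes all had at least 28 in 3 mice, so genes under that are not analysed here. The same table holds the authors' signed fold change and false discovery rate for the diet comparison, which were not used.

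Values were transformed as log2(value + 1), so fold changes of low genes are slightly understated, and limma 3.58.1 (R 4.3.3), its prior variance following mean expression, was fitted to all 11784 genes, with p-values adjusted over all of them by Benjamini-Hochberg. A filter of at least 1 in 4 mice removed 0 genes. A count model was planned only for raw counts and was not used on scaled values. Single genes and ratios were also tested by exact permutation of mice, two-sided, and correlations by exact permutation of pairings. The authors state that mice were group housed, and nothing in the labels gives the cage or a pairing of any mouse. The tests treat each mouse as independent, which mice of 1 cage may not be, and the p-values measure the spread between these mice. Total scaled read counts are not sequencing depth, which is unknown, so no counting intervals are given.

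Named genes were the members, Cyp7a1 and Cyp8b1, the 2 smallest unadjusted p-values of each list (all called genes, if any), and the 3 highest and 1 lowest correlated genes of each member, with cell type markers and acute-phase genes as values beside a result. Of the correlated genes, 1 is not reported here. The members, lists and alternatives were chosen with earlier results of these data known. Positions are from GENCODE M21 (GRCm38) and promoter windows from RefSeq. The alternatives were other pseudocounts (0.1 and 5), the 8000 genes with the highest mean, no trend, robust moderation, equal library totals, diet-centred values and leaving out mice. Figures were drawn with matplotlib 3.10.9, and the fit was tested on simulated data.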

Additional observations from a re-analysis of the deposited data

Results flagged for a closer look

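Of 28 groups of 4 mice examined, 2 held a mouse far from the other 3 by Dixon's test at the 95% level, where chance gives about 1 in 20, and both concern the log2 ratio of Nr0b2 to Cyp7a1. On Control the ratio was 0.018 in F7111 against -2.690, -2.352 and -2.741 in F129, F2212 and F2110, and the gap of F7111 took up 0.859 of the range. On Low AA it was -2.381 in H817 against -0.296, -0.342 and -0.296 in H1126, H828 and H1315, a gap of 0.978 of the range. F7111 was above all other mice of either diet, while H817 lay beside the other 3 Control mice. The diet means were -1.94 ± 1.32 and -0.83 ± 1.04 (SD, n = 4 each), a difference of 1.11 (exact permutation p = 0.343). The difference was 1.77 without F7111 (exact permutation p = 0.0857) and 1.63 without H817 (exact permutation p = 0.143).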

How the results depend on the processing

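None of the 8 members, nor Cyp7a1 or Cyp8b1, was called by limma under any alternative. The number of genes called was 47, with 19 among the 8000 genes of highest mean, 30 with no trend, and 16 to 77 with each mouse left out (21 without H1126, 19 without H828, 16 without H817, 29 without F129, 77 without F2212). List genes called went from 0 to between 0 and 2 with a mouse left out: Orm1 without H1315 (log2 fold change -2.44, limma adjusted p = 0.0415), and Ppp2r2d (0.67, 0.0443) and Apcs (1.34, 0.0242) without F2212. Ratios at an unadjusted exact p under 0.05 went from 1 to between 0 and 1. That ratio was Klb to Fgfr4, whose exact p with all mice was 0.114 when adjusted over the 4 ratios. Its log2 difference ran from 0.515 to 0.753 with an unadjusted exact p of 0.0286 or, where a Control mouse was left out, 0.0571. Fold changes whose sign turned with a mouse left out were Cyp7a1 (-1.03 to 0.16), Nr1h4 (-0.027 to 0.20) and Zfp36l1 (-0.13 to 0.24), and Nr5a2 ran from 0.12 to 0.45. Without the 2 farthest mice r turned sign for Cyp7a1 with Nr1h4 (-0.12), Nr0b2 (-0.53) and Fgfr4 (0.36) and for Cyp8b1 with Ppp2cb (0.29). Diet-centred, it turned for Cyp8b1 with Nr0b2 (0.063), Fgfr4 (-0.54) and Ppp2cb (0.10). With a mouse left out, r of Cyp7a1 ran from -0.23 to 0.19 with Nr0b2, -0.44 to 0.28 with Fgfr4 and -0.42 to 0.16 with Zfp36l1, and r of Cyp8b1 from -0.58 to 0.025 with Nr0b2, -0.25 to 0.70 with Fgfr4 and -0.46 to 0.16 with Ppp2cb. The causes were not tested. No paired analysis was possible because the mouse codes are not shared between the diets. With 4 mice a diet, the exact test cannot go below 0.0286, and differences of the size seen for Klb or Nr5a2 were not separated from the spread between mice.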

Other observations

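Acute-phase genes, which hepatocytes induce in inflammation, were read as a further list beside the feedback genes. All 18 were in the table, with a median log2 fold change of -0.06, or -0.00035 without F2212. Limma called 0 of them, and 2 in each direction had an unadjusted p under 0.05. Over all genes, 5.13% were higher and 6.7% lower on Low AA at that unadjusted threshold. Orm1, an alpha-1-acid glycoprotein, was at 11372, 16131, 9665 and 8111 scaled read counts in F129, F2212, F7111 and F2110 and at 2598, 955, 3274 and 5794 in H1126, H828, H817 and H1315. The groups did not overlap, and the log2 fold change was -2.06 (limma adjusted p = 0.0908). Apcs, serum amyloid P, was at 1351, 3439, 1365 and 1603 on Control and at 2630, 3273, 4049 and 5064 on Low AA, with means of 1940 ± 1006 on Control and 3754 ± 1048 on Low AA (SD, n = 4 each; log2 fold change 1.03, limma adjusted p = 0.192). The Control mouse F2212, with the highest acute-phase sum, also had the highest Control value of Apcs. Saa1, serum amyloid A, was at 57733 in F2212, at 1068 to 2818 in the other 3 Control mice and at 68 to 770 on Low AA, and its groups did not overlap (log2 fold change -3.49, or -2.23 without F2212, limma adjusted p = 0.261 with all mice).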
